A study of Mus musculus with 6 samples.

Results

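The nuclear-encoded genes of respiratory complexes II to V were taken by symbol as Sdha, Sdhb, Sdhc, Sdhd and Cyc1, the symbols that begin with Uqcr or Atp5, and those of the nuclear Cox subunit families, without rows marked as pseudogenes. This gave 49 of the 48401 gene rows, of which 4 belong to complex II, 9 to complex III, 18 to complex IV and 18 to complex V. Of these, 44 reached a mean of 1 TPM (transcript abundance scaled to gene length and library depth) over the 6 libraries and were tested, and the remaining 5 were Cox6a2, Cox7b2, Cox8b, Cox8c and Atp5l2. The libraries were made from L4/5 dorsal root ganglia, which hold the cell bodies of sensory neurons together with their glia, of male C57BL/6J mice aged 8 weeks. The siCLAP group (3 libraries) had received intrathecal siRNA against CLAP, a long intergenic noncoding RNA that the study examines in itch, and the siNC group (3 libraries) intrathecal siNC, taken here as the control siRNA. All mice of both groups were thus injected, and the labels name no other allele or agent, no time between injection and sampling, and no statement on pooling or on which mouse gave which library. The p-values therefore measure the spread between these libraries, which may be technical. No row carries the name CLAP, so its level was not analysed here. Sets of 3 values are given in the order of replicates 1, 2 and 3.

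Total expected counts were between 21386768 and 46317735 per library, and the 49 genes together took 0.484% to 0.519% of them in siCLAP and 0.455% to 0.479% in siNC. All 9 sensory neuron markers were present, the highest at 4266 TPM for Uchl1 in siCLAP-1. In whole ganglia, fewer cells of a type and less RNA per cell cannot be told apart. Of the expected counts of the 44 tested genes 17.4% were whole numbers, against 28.0% over all 19141 genes tested and 21.0% over tested genes with a mean above 100 counts. Reads of near-identical gene copies may have been divided between rows, and several of these genes are known to have processed pseudogenes.

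Complexes II to V carry electrons to oxygen and make ATP at the inner mitochondrial membrane. Complex II, succinate dehydrogenase, feeds electrons from succinate into the quinone pool, complex III passes them to cytochrome c, complex IV reduces oxygen, and complex V, the ATP synthase, uses the proton gradient that complexes III and IV help to build. Complex II is encoded in the nucleus alone, whereas the other complexes combine nuclear subunits with a few mitochondrially encoded ones. Sensory neurons need much ATP to restore ion gradients and to supply long axons. The transcription factors NRF1, GABP (also called NRF-2) and YY1 are known to act on the promoters of many nuclear respiratory genes.

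Promoter sequences were searched for the core motifs of these 3 factors because many nuclear respiratory genes are known to share them. RefSeq windows of 300 bases (250 before and 50 after a start site, build GRCm38.p6) were found for 37 of the 49 genes, in 41 windows. The NRF1 motif (GCGCA and GCGC with any 1 base between), searched like the others on both strands, was in 10 of the 41 windows (24.4%), against 4.60% of 32851 windows of all genes. The GABP motif CCGGAAG was in 12 windows (29.3%, against 8.86%) and the YY1 motif AAGATGGC in 5 (12.2%, against 2.75%). These 5 windows belong to 4 genes, as overlapping windows of Atp5sl hold the same YY1 match. The end of the GABP motif and the start of the YY1 motif share the letters AAG, so that matches can overlap. At least 1 of the 3 motifs was in 22 windows (53.7%) of 21 genes, against 14.7% of all windows. The windows of all genes were not matched to those of these genes in expression level or base composition. A match describes the letters only and does not show that a factor binds there. The windows of 4 genes are shown because each holds such a match and because Cox6a1 was the most abundant nuclear gene of complex IV, Sdhd encodes a membrane anchor of complex II, and Cox6b1 and Atp5g3 had the smallest p-values of complexes IV and V in the comparison of siCLAP with siNC. The window of Sdhd lies at chr9:50603800-50604099 on the minus strand and that of Cox6a1 at chr5:115348909-115349208 on the minus strand. That of Cox6b1 lies at chr7:30626065-30626364 on the minus strand and that of Atp5g3 at chr2:73911277-73911576 on the minus strand. All 4 are written along the gene's strand with the motif matches in capitals (in Sdhd 1 NRF1 and 1 GABP match, in Cox6a1 2 NRF1 and 1 GABP match, in Cox6b1 1 GABP match and in Atp5g3 1 NRF1 match).
Sdhd: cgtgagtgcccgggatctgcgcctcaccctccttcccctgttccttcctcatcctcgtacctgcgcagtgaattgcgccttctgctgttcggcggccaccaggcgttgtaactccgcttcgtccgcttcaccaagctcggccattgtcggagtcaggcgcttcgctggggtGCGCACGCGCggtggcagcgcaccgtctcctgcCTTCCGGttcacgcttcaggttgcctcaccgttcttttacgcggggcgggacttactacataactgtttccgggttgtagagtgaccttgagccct
Cox6a1: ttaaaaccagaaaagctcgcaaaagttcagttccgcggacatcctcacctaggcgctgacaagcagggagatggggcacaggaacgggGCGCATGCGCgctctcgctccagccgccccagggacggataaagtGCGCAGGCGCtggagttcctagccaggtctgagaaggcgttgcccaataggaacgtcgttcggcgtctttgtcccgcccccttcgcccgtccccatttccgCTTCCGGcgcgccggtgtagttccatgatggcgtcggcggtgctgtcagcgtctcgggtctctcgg
Cox6b1: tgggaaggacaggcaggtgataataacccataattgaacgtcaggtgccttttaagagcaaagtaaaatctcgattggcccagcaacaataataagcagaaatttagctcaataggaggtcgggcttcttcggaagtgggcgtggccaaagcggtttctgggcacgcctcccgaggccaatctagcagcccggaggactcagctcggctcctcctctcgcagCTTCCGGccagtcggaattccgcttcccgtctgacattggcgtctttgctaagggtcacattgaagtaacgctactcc
Atp5g3: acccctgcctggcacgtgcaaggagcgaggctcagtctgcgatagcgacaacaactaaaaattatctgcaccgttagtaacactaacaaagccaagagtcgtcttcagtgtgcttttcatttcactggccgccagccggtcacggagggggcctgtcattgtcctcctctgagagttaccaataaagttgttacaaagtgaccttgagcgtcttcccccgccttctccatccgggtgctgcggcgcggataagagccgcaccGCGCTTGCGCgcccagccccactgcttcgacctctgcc

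These genes were among the abundant transcripts of the ganglion. Of the 49 rows 32 had a mean of 100 TPM or more over the 6 libraries, 9 lay between 20 and 100 TPM, 3 between 1 and 5 TPM, and 5 below 1 TPM. Over all 19141 genes tested 9.85% reached 100 TPM. The summed level of the 49 genes was 11159, 11108 and 10241 TPM in the siCLAP libraries, against 9602, 10118 and 10001 TPM in the siNC libraries. The groups did not overlap, but siCLAP-3 stood much closer to siNC-2 and siNC-3 than the other siCLAP libraries did, and siNC-1 was the lowest of all. In means the sum was 10836 ± 516 TPM in siCLAP and 9907 ± 270.4 TPM in siNC (SD, n = 3 libraries each), a difference of 9.38%.

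**Figure D1:**
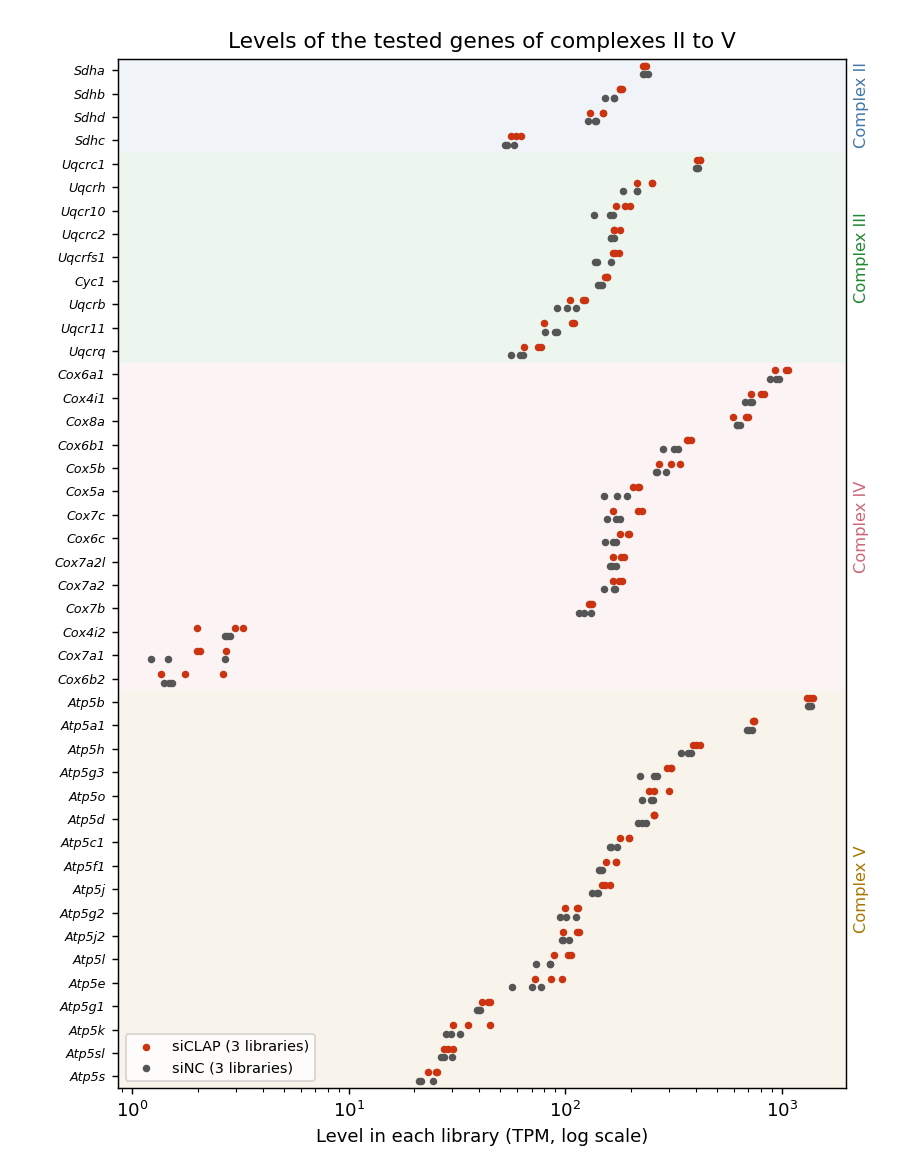
Level of each of the 44 tested genes in TPM on a log axis, with siCLAP libraries (red) above siNC libraries (grey) in each row and genes ordered by mean level within complexes II to V. The subunit genes lie between 33.6 TPM (Atp5k) and 1343 TPM (Atp5b), and the isoform genes Cox4i2, Cox7a1 and Cox6b2 lie between 1 and 5 TPM.

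The comparison of siCLAP with siNC asked whether these genes differ after the knockdown. Estimates of the log2 fold change (siCLAP over siNC) were above 0 for 43 of the 44 tested genes, Cox4i2 being the exception, and the median was 0.16, against a median of −0.0018 and 49.5% of estimates above 0 over all genes tested. The differences were small, with estimates between −0.029 for Cox4i2 and 0.43 for Cox6b2, both isoform genes of low level, and Cox4i2 turned positive without siCLAP-1 or without siNC-2. No member passed a Benjamini-Hochberg adjusted p of 0.05 over all genes in edgeR's quasi-likelihood test, in either direction, where 0.0731% of all tested genes passed as higher and 0.219% as lower. The smallest adjusted p was 0.0835, for Atp5g3. At an unadjusted p under 0.05, 24 members (54.5%) were higher and 0 lower in edgeR's test, against 8.22% of all tested genes higher and 8.75% lower. DESeq2 called 10 members higher and 0 lower at an adjusted p of 0.05, against 1.71% and 2.68% of the genes it adjusted, while limma voom called 0 (background 0.0888% higher and 0.225% lower). In 17 of the 44 genes (38.6%) every siCLAP library was above every siNC library in TPM, and in 0 was every siCLAP library below, against 9.39% and 12.2% of all tested genes.

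**Figure D2:**
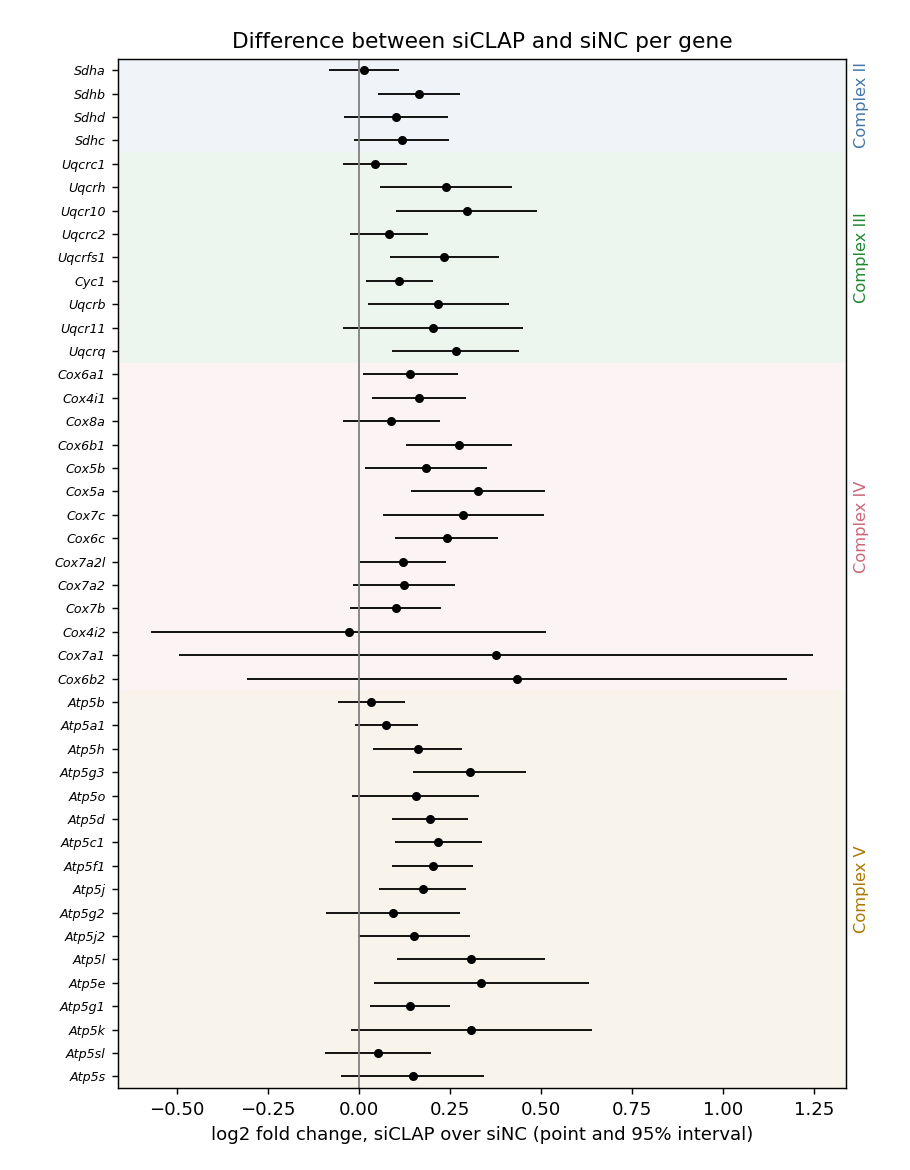
Log2 fold change of each of the 44 tested genes, siCLAP over siNC, with its 95% interval from edgeR's quasi-likelihood fit, in the same order as in the plot of levels. All points but that of Cox4i2 lie right of 0, and the widest intervals are those of Cox4i2, Cox7a1 and Cox6b2.

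In complex II the iron-sulfur subunit gene Sdhb had the lowest p. Sdhb stood at 179.7, 182 and 179 TPM in the siCLAP libraries, against 167, 167 and 152 TPM in the siNC libraries, and the groups did not overlap (log2 fold change 0.16 ± 0.051 SE, edgeR adjusted p = 0.149). Sdha, which encodes the flavoprotein that oxidises succinate, stood at 235, 235 and 229.6 TPM in the siCLAP libraries, against 229, 241 and 230.1 TPM in the siNC libraries. Its groups overlapped and its estimate was 0.013 ± 0.044 (95% interval −0.083 to 0.11), and the sign turned without siNC-1 and with limma on log2(TPM + 0.5). The membrane anchor genes Sdhc and Sdhd averaged 59.0 ± 3.10 TPM in siCLAP and 54.9 ± 2.82 TPM in siNC, and 143 ± 11.1 TPM in siCLAP and 135 ± 6.40 TPM in siNC (SD, n = 3 libraries each), with estimates of 0.12 ± 0.059 and 0.10 ± 0.065 that did not pass (adjusted p = 0.344 and 0.457). The Sdhd level of siCLAP-3 was exceeded by both siNC-2 and siNC-3. The 4 genes summed to 615 ± 17.9 TPM in siCLAP and 585 ± 16.6 TPM in siNC (SD, n = 3 libraries each), and the groups overlapped.

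Complex III had the highest median of the complexes, at 0.22 over 9 genes, with all estimates above 0 and 6 higher at an unadjusted p under 0.05, against 8.22% of all tested genes higher and 8.75% lower. The difference between complexes was not tested. Uqcrfs1, the Rieske iron-sulfur protein that takes electrons from quinol, stood at 166, 177 and 169.7 TPM in the siCLAP libraries, against 138, 162 and 139.8 TPM in the siNC libraries, without overlap (log2 fold change 0.23 ± 0.068 SE, edgeR adjusted p = 0.131). The small subunit gene Uqcr10 stood at 199.5, 188 and 172 TPM in the siCLAP libraries, against 135, 161 and 167 TPM in the siNC libraries, again without overlap (log2 fold change 0.30 ± 0.088 SE, edgeR adjusted p = 0.137). For Uqcrq, another small subunit gene, the values were 74.4, 77.2 and 64.6 TPM in the siCLAP libraries, against 55.9, 64.1 and 61.7 TPM in the siNC libraries. Its groups also did not overlap, although siCLAP-3 exceeded siNC-2 by less than 1 TPM (log2 fold change 0.27 ± 0.079 SE, edgeR adjusted p = 0.137). The fourth gene without overlap was Cyc1, the cytochrome c1 subunit that hands electrons to cytochrome c, at 155 ± 2.47 TPM in siCLAP and 145 ± 2.77 TPM in siNC (SD, n = 3 libraries each; log2 fold change 0.11 ± 0.042). The core protein genes Uqcrc1 and Uqcrc2, whose products resemble the mitochondrial processing peptidase, had the smallest estimates of the complex, at 0.043 ± 0.04 and 0.082 ± 0.049. Uqcrc1 was the most abundant nuclear gene of complex III and stood at 418, 418 and 408 TPM in the siCLAP libraries, against 403, 412 and 406 TPM in the siNC libraries, with an interval of −0.045 to 0.13. Uqcrh, the hinge protein that docks cytochrome c, and the small subunit genes Uqcrb and Uqcr11 were at 0.24 ± 0.082, 0.22 ± 0.088 and 0.20 ± 0.11, with siCLAP-3 inside the siNC range for Uqcrb and below all siNC libraries for Uqcr11. The summed level of the 9 genes was 1677, 1664 and 1532 TPM in the siCLAP libraries, against 1406, 1505 and 1499 TPM in the siNC libraries, without overlap.

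In complex IV the lowest p-values were those of Cox6b1, Cox5a and Cox6c. Cox6b1, a subunit at the cytochrome c docking face, stood at 380.3, 370.3 and 364 TPM in the siCLAP libraries, against 282, 332 and 317 TPM in the siNC libraries (log2 fold change 0.27 ± 0.066 SE, edgeR adjusted p = 0.0885). Cox5a, a subunit on the matrix side that is known to bind a thyroid hormone metabolite, stood at 219, 216 and 206 TPM in the siCLAP libraries, against 151, 193 and 173 TPM in the siNC libraries (log2 fold change 0.33 ± 0.084 SE, edgeR adjusted p = 0.0984). Cox6c, a small membrane subunit, stood at 195, 196 and 179 TPM in the siCLAP libraries, against 152, 171 and 165 TPM in the siNC libraries (log2 fold change 0.24 ± 0.064 SE, edgeR adjusted p = 0.104). For these 3 genes every siCLAP library was above every siNC library. In the other tested complex IV genes except Cox4i2, siCLAP-3 was below the highest siNC library. The most abundant nuclear gene, Cox6a1, stood at 1045, 1066 and 928 TPM in the siCLAP libraries, against 885, 935 and 967 TPM in the siNC libraries, so that siCLAP-3 was below siNC-2 and siNC-3 (log2 fold change 0.14 ± 0.059). Cox8a stood at 684, 699 and 598 TPM in the siCLAP libraries, against 618, 643 and 621 TPM in the siNC libraries, with siCLAP-3 the lowest of all 6 libraries. Cox7c had one of the larger estimates, 0.29 ± 0.10, but its siCLAP-3 level of 167 TPM was below siNC-2 and siNC-3. Cox5b, Cox7a2 and Cox7b were at 0.18 ± 0.076, 0.12 ± 0.064 and 0.10 ± 0.057. The summed level of the 18 complex IV rows was 4378, 4414 and 3904 TPM in the siCLAP libraries, against 3614, 3903 and 3906 TPM in the siNC libraries, so that siCLAP-3 and siNC-3 were level and the groups overlapped.

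Subunit isoforms of complex IV differed widely in level in the ganglion, with the general forms far above those known from muscle or testis. Cox4i1, the general form of the subunit that binds ATP as a regulator, stood at 799, 829 and 722 TPM in the siCLAP libraries, against 674, 731 and 713 TPM in the siNC libraries, and its mean over the 6 libraries was 272 times that of Cox4i2, the form known from lung and from low oxygen. Cox4i2 had 1.98, 2.97 and 3.24 TPM in the siCLAP libraries and 2.74, 2.83 and 2.68 TPM in the siNC libraries, from 16 to 37 counts per library. Cox6a1, known as the liver form, exceeded the heart and muscle form Cox6a2 by a ratio of 2400, with 1 to 7 counts of Cox6a2 per library. Cox7a2 exceeded the heart and muscle form Cox7a1 by a ratio of 83.6. Cox7a1 had 1.99, 2.71 and 2.05 TPM in siCLAP and 1.22, 1.46 and 2.69 TPM in siNC, and its interval of −0.49 to 1.25 allows a change in either direction. Cox8b, the heart and muscle partner of Cox8a, was listed at 0 in all 6 libraries. Among testis forms, Cox6b2 had 1.76, 2.63 and 1.36 TPM in siCLAP and 1.53, 1.40 and 1.47 TPM in siNC, so Cox6b1 exceeded it by a ratio of 201. Cox7b2 had at most 3 counts in a library and Cox8c was listed at 0 in 4 libraries. The skeletal muscle markers other than Pvalb, 8 in number, did not exceed 1.99 TPM in any library.

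In complex V, 9 of the 17 tested genes had no overlap between groups, all higher in siCLAP (9.39% of all tested genes were higher in this way and 12.2% lower), and all 17 estimates were above 0. The catalytic head, F1, is built from the subunits alpha, beta, gamma, delta and epsilon, with several copies of alpha and beta and single copies of the others. Atp5b, the catalytic beta subunit and the most abundant nuclear gene of complexes II to V, stood at 1396, 1354 and 1303 TPM in the siCLAP libraries, against 1361, 1315 and 1329 TPM in the siNC libraries. Its groups overlapped and its estimate was 0.034 ± 0.041 (interval −0.057 to 0.13). Atp5a1, the alpha subunit, stood at 741, 734 and 742 TPM in the siCLAP libraries, against 730.2, 705 and 693 TPM in the siNC libraries, without overlap but with a small difference (log2 fold change 0.075 ± 0.039 SE, edgeR adjusted p = 0.355). Atp5c1, the gamma subunit that forms the rotating shaft, stood at 196, 196 and 179 TPM in the siCLAP libraries, against 163, 173 and 161 TPM in the siNC libraries (log2 fold change 0.22 ± 0.055 SE, edgeR adjusted p = 0.0951). Atp5d, the delta subunit at the foot of the shaft, stood at 256, 258 and 256 TPM in the siCLAP libraries, against 218, 236 and 226 TPM in the siNC libraries (log2 fold change 0.20 ± 0.048 SE, edgeR adjusted p = 0.0905). In both, every siCLAP library was above every siNC library, and the 3 siCLAP values of Atp5d lay within 2 TPM of each other. Atp5e, the epsilon subunit, had a larger estimate but more spread (0.34 ± 0.13), as siCLAP-3 at 72.4 TPM was below siNC-2 at 77.2 TPM.

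The membrane part of complex V turns on a ring of c subunits, whose identical mature protein is encoded by Atp5g1, Atp5g2 and Atp5g3. Atp5g3 stood at 293, 307 and 308 TPM in the siCLAP libraries, against 220.5, 266 and 257 TPM in the siNC libraries and had the smallest p of all 44 genes (log2 fold change 0.30 ± 0.071 SE, edgeR adjusted p = 0.0835). Its siCLAP libraries were all higher, and siNC-1 was the lowest. Atp5g1 stood at 44.0, 41.4 and 44.8 TPM in the siCLAP libraries, against 39.0, 40.5 and 39.9 TPM in the siNC libraries, also without overlap (log2 fold change 0.14 ± 0.05 SE, edgeR adjusted p = 0.196), and Atp5g2 at 113, 114 and 99.5 TPM in the siCLAP libraries, against 94.9, 113 and 101 TPM in the siNC libraries, with overlap. Together the c subunit genes summed to 450.3, 463 and 452 TPM in the siCLAP libraries, against 354, 419 and 398 TPM in the siNC libraries. These levels depend on the fixed length taken for each gene, which was 4715 bases for Atp5g1, 647 for Atp5g2 and 724 for Atp5g3. Of the peripheral stalk genes, Atp5f1 (subunit b) stood at 172, 171 and 155 TPM in the siCLAP libraries, against 145, 148 and 144 TPM in the siNC libraries, without overlap (log2 fold change 0.20 ± 0.051 SE, edgeR adjusted p = 0.0950). Atp5h (subunit d) and Atp5j (coupling factor 6) were likewise apart, at 0.16 ± 0.055 and 0.17 ± 0.054, while Atp5o, which joins the stalk to the head, overlapped at 0.16 ± 0.08. Of the small membrane subunit genes, Atp5l (subunit g) did not overlap (0.31 ± 0.092), and Atp5k (subunit e) and Atp5j2 (subunit f) did (0.31 ± 0.15 and 0.15 ± 0.069). The 5 head genes summed to 2686, 2628 and 2552 TPM in the siCLAP libraries, against 2528, 2505 and 2478 TPM in the siNC libraries, a narrower gap than that of the 10 other subunit genes, which summed to 1741, 1719 and 1607 TPM in the siCLAP libraries, against 1427, 1548 and 1494 TPM in the siNC libraries. The difference between these sums was not tested.

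Some rows that the symbols bring in encode no subunit of these complexes. Cox7a2l is known as a factor that joins complexes III and IV into supercomplexes, and C57BL/6 strains carry a shortened form of its protein. It had 181, 186 and 167 TPM in the siCLAP libraries, against 161, 165 and 171 TPM in the siNC libraries, with overlap (log2 fold change 0.12 ± 0.054 SE, edgeR adjusted p = 0.281). Atp5s, known as ATP synthase coupling factor B, and its relative Atp5sl are now named Dmac2l and Dmac2 in RefSeq, and Dmac2 is known for the assembly of complex I. They stood at 0.15 ± 0.089 and 0.051 ± 0.066, with adjusted p = 0.424 and 0.730 in edgeR's test. Atp5l2, which RefSeq lists as a pseudogene, did not exceed 0.789 TPM.

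Within each group 1 library stood apart from the other two, siCLAP-3 toward the siNC libraries and siNC-1 away from the siCLAP libraries. Relative to each gene's own mean over the 6 libraries, the median of the 44 tested genes on the log2 scale was 0.10, 0.13 and −0.016 in the siCLAP libraries, against −0.13, −0.037 and −0.054 in the siNC libraries. The highest level of a gene was in siCLAP-2 for 21 genes and in siCLAP-1 for 18, and the lowest was in siNC-1 for 31. siCLAP-1 was above every siNC library in 40 of the 44 genes and siCLAP-2 in 39, but siCLAP-3 in only 19. Without siNC-1 or without siCLAP-1 the number of genes at an unadjusted p under 0.05 dropped to 14 each, and the median over the 44 genes was 0.14 in both cases. The share of all tested genes at that unadjusted p is not given here for fits with a library left out. Without siCLAP-3 the median was 0.21 and 4 genes passed the adjusted threshold (Atp5c1, Atp5f1, Cox7c and Uqcrq), where 0.596% of all tested genes passed as higher. Without siNC-2 it was 0.20 and 4 other genes passed (Atp5g3, Cox5a, Cox6b1 and Uqcrfs1), against a background of 0.256%. When any of the other 4 libraries was left out, 0 of the 44 genes passed, and the background was 0% without siCLAP-1, 0.0731% without siCLAP-2, 0.0366% without siNC-1 and 0% without siNC-3.

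**Figure D3:**
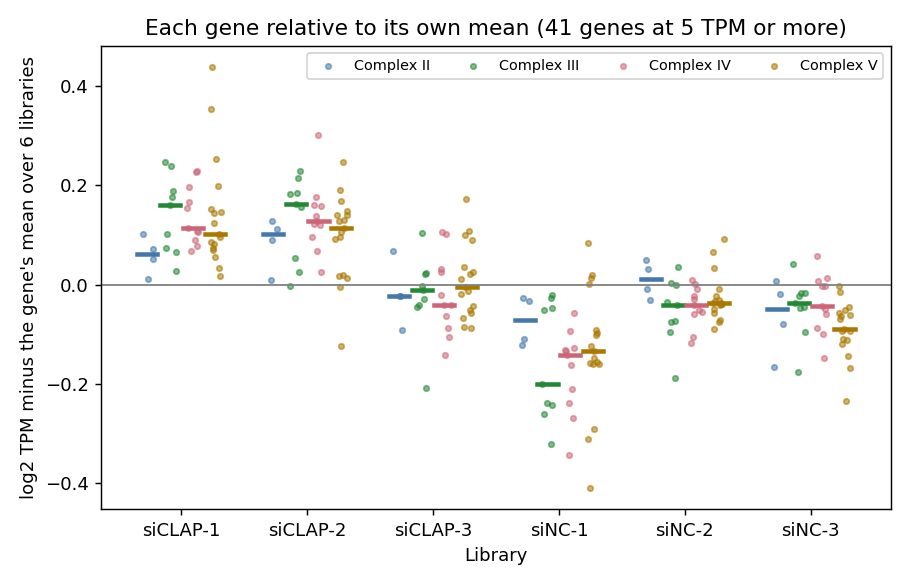
Log2 TPM of each gene minus its own mean over the 6 libraries, by library, for the 41 genes with a mean of 5 TPM or more, coloured by complex, with bars at the medians. siCLAP-1 and siCLAP-2 lie mostly above 0 and siNC-1 mostly below, and siCLAP-3 lies near siNC-2 and siNC-3.

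The genes of these complexes also tend to have short gene lengths. The length of a gene varied by less than 1% between libraries in 100% of genes with 200 or more counts in more than 1 library. It is thus a fixed length per gene and need not be the length of the transcripts present. Gene length, taken from count over TPM and set to bases, had a median of 801.5 bases over the 44 genes, against 2608 over all genes tested, and ran from 366 bases for Cox7a1 to 4715 for Atp5g1. Within the 44 genes the estimate was larger in shorter genes, with a Spearman correlation of −0.61 across genes, which share the same 6 libraries and are not independent. The correlation was −0.54 after each library's trend against length was removed. Over the other tested genes under 3000 bases it was 0.0069 before that removal. The values of the 44 genes were not cut at 3000 bases, so the length ranges differ. The 5 genes under 500 bases had a median of 0.31 and the 15 genes of 500 to 750 bases a median of 0.24, against 0.16 for the 5 genes of 750 to 1000 bases, 0.14 for the 6 of 1000 to 1500 bases, 0.10 for the 8 of 1500 to 2500 bases and 0.12 for the 5 longer ones. Among the other tested genes the medians of the same 6 classes, from short to long, were −0.045, 0.042, 0.058, 0.06, 0.027 and −0.019. Over the other genes of 750 to 1000 bases the libraries stood at 0.016, 0.046 and 0.0018 in siCLAP and −0.051, −0.011 and 0.0067 in siNC relative to each gene's mean, so that siCLAP-2 was the highest and siNC-1 the lowest also in other genes of that length. Among other genes under 500 bases siCLAP-1 was the lowest (−0.022) and siNC-3 the highest (0.051), and among those of 2500 bases and over siCLAP-2 was the lowest (−0.021) and siNC-1 the highest (0.039). With each library's trend against length removed, the median over the 44 genes was 0.13 and 43 estimates remained above 0. In that fit 20 genes had an unadjusted edgeR p under 0.05, for which the share of all tested genes is not given here. After adjustment 0 passed, where 0.146% of all tested genes passed as higher and 0.230% as lower.

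**Figure D4:**
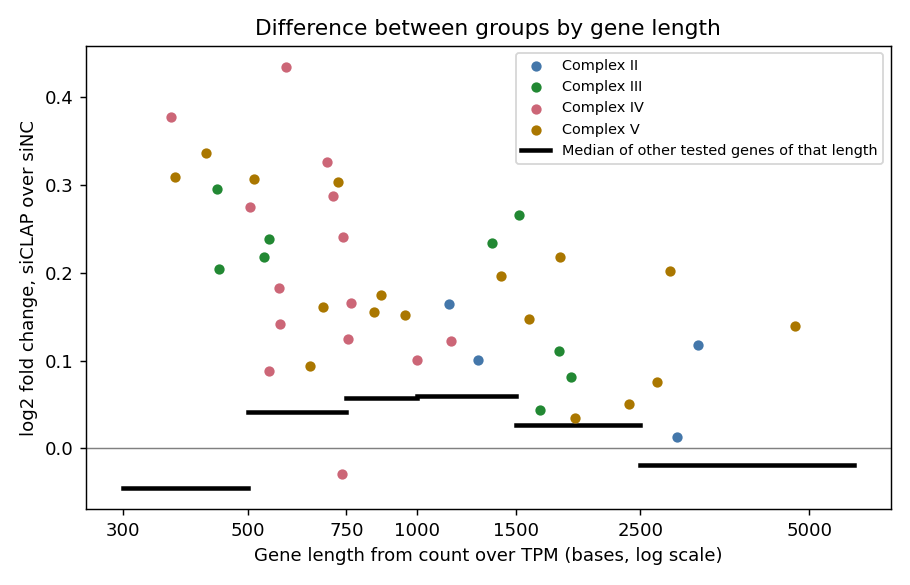
Log2 fold change (siCLAP over siNC) of the 44 tested genes against gene length on a log axis, coloured by complex, with black bars for the median of the other tested genes in each length class. Within every length class the median of the complex II to V genes lies above the bar.

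Genes that work with these complexes had smaller median differences. As in the 44 genes, 0 genes of 5 such lists passed edgeR's adjusted threshold in either direction. siCLAP libraries were all above siNC libraries in 7 of 34 assembly factor, 2 of 9 carrier and 7 of 16 tricarboxylic acid cycle genes. The other lists had 0, against 17 of the 44 genes and 9.39% of all tested genes. In every list but the carriers 1 gene was lower in this way, against 12.2%. Summed levels of the assembly factor, carrier and cycle lists were also higher in siCLAP without overlap. For the carriers the groups almost touched, with a lowest siCLAP sum of 2508.6 TPM and a highest siNC sum of 2508.3 TPM. The gap was also narrow for the cycle list (2905 and 2897 TPM) and wider for the assembly factors (1071 and 1040 TPM). Over all tested genes 8.22% were higher and 8.75% lower at an unadjusted edgeR p under 0.05. DESeq2 called 1.71% of the genes it adjusted as higher and 2.68% as lower. Among the 34 assembly factor genes of complexes II to V, 25 estimates were above 0, 6 genes had an unadjusted edgeR p under 0.05 (all higher), DESeq2 called 0, and the median was 0.067. Cox14, which helps to start complex IV assembly, stood at 103, 106 and 95.6 TPM in the siCLAP libraries, against 84.5, 93.3 and 86.0 TPM in the siNC libraries, without overlap (0.22 ± 0.069, edgeR adjusted p = 0.155). Ttc19, an assembly factor of complex III, also did not overlap (0.16 ± 0.051, edgeR adjusted p = 0.159). Of 9 tested genes for the electron carrier, the ATPase inhibitor and the nucleotide, phosphate and anion carriers, all estimates were above 0 with a median of 0.088, 4 had an unadjusted p under 0.05, and DESeq2 called 1. Cycs, cytochrome c itself, stood at 91.9, 93.4 and 86.0 TPM in the siCLAP libraries, against 81.6, 81.5 and 77.8 TPM in the siNC libraries, without overlap (0.19 ± 0.049, edgeR adjusted p = 0.101), and the anion channel gene Vdac2 was at 0.18 ± 0.054, edgeR adjusted p = 0.144. In the tricarboxylic acid cycle list 13 of 16 estimates were above 0 (median 0.053), 5 genes were higher at an unadjusted p under 0.05 and DESeq2 called 1, with Dlat and Dld, subunits of the pyruvate dehydrogenase complex, at 0.22 ± 0.057, edgeR adjusted p = 0.101, and 0.15 ± 0.046, edgeR adjusted p = 0.149. The regulators of nuclear respiratory genes went the other way on balance, with 8 of 11 estimates below 0 and a median of −0.043, although at an unadjusted p under 0.05 there was 1 gene in each direction and DESeq2 called 0. Pprc1, a coactivator of NRF1, stood at 13.5, 13.1 and 14.6 TPM in the siCLAP libraries, against 16.0, 15.3 and 16.3 TPM in the siNC libraries, all siCLAP libraries being lower (−0.19 ± 0.06, edgeR adjusted p = 0.157), while Tfb2m, a mitochondrial transcription factor, was at 0.16 ± 0.062, edgeR adjusted p = 0.236.

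The mitochondrially encoded partners of complexes III, IV and V had 4 of 6 estimates above 0 and a median of 0.058. At an unadjusted edgeR p under 0.05 there was 1 gene in each direction, against 8.22% of all tested genes higher and 8.75% lower. DESeq2 called 0. mt-Co1, the catalytic core of complex IV, stood at 11517, 10349 and 12884 TPM in the siCLAP libraries, against 11083, 11992 and 11816 TPM in the siNC libraries, with overlap. mt-Cytb lay between 4504 and 6262 TPM. The other rows were far lower, with at most 13.05 TPM for mt-Co2 and 21.1 TPM for mt-Co3. Outside siCLAP-1, mt-Atp6 and mt-Atp8 had at most 25.2 and 19.9 TPM. Whether these low rows measure their transcripts in full was not tested, and the median of the list includes them. The estimate of mt-Co3, 1 of these low rows, was −0.75 ± 0.25, edgeR adjusted p = 0.176. mt-Atp8 overlaps mt-Atp6, so that reads of both may be divided between them. Its estimate (3.40 ± 1.14, edgeR adjusted p = 0.174) rests on siCLAP-1, where it had 382 TPM, and turned to −0.16 without that library.

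Markers of cell types that the ganglion could hold were measured beside these genes. For their counts, the shares over all tested genes were 8.22% higher and 8.75% lower at an unadjusted edgeR p under 0.05. In DESeq2 the shares were 1.71% higher and 2.68% lower of the genes it adjusted. Of the 9 sensory neuron markers 7 had estimates above 0 (median 0.098) and 0 were called by edgeR, 5 being higher and 1 lower at an unadjusted p under 0.05 and 1 called by DESeq2, with summed levels of 19856 to 20644 TPM in siCLAP and 18856 to 19959 TPM in siNC. Of the 5 markers of proprioceptors and large myelinated neurons Pvalb rose (172, 165 and 151 TPM in the siCLAP libraries, against 121, 122 and 119 TPM in the siNC libraries; log2 fold change 0.45 ± 0.058, edgeR adjusted p = 0.0215) and 4 did not pass, though DESeq2 called 2. Pvalb is also a skeletal muscle marker, and the level of the other muscle markers is given above with the isoforms. Of the 5 markers of this neuron list 4 had estimates above 0 and 1 below (median 0.28). At an unadjusted edgeR p under 0.05, 4 were higher, Pvalb among them, and 0 lower. The list's sums were 2436 to 2756 TPM in siCLAP and 2069 to 2475 TPM in siNC. The 6 leptomeningeal markers summed to 10.7 to 22.2 TPM in siCLAP and 26.6 to 109.5 TPM in siNC, without overlap, and all 5 tested members had estimates below 0 (median −1.10), with 3 at an unadjusted edgeR p under 0.05 and 0 after adjustment, while DESeq2 called 1. Of the 5 myelinating Schwann cell markers Egr2, a transcription factor of myelination, fell (9.03, 9.05 and 11.3 TPM in the siCLAP libraries, against 19.8, 16.2 and 14.1 TPM in the siNC libraries; log2 fold change −0.76 ± 0.13, edgeR adjusted p = 0.0389) and 4 did not pass. All 5 myelinating Schwann cell markers had estimates below 0 (median −0.15), with 2 lower at an unadjusted edgeR p under 0.05 and 1 called lower by DESeq2. The sums of the satellite glia, myelinating Schwann cell, macrophage, endothelial, heart muscle, brown fat, fat and erythroid markers overlapped between the groups. Among 5 satellite glia markers Fabp7 did not overlap (226, 218 and 268 TPM in the siCLAP libraries, against 183, 180.2 and 191 TPM in the siNC libraries; log2 fold change 0.38 ± 0.071, edgeR adjusted p = 0.0560), and 2 were higher at an unadjusted edgeR p under 0.05, with 1 called by DESeq2. Of 4 endothelial markers Cldn5 was apart and higher and Cdh5 apart and lower (log2 fold changes 0.29 ± 0.087, edgeR adjusted p = 0.140, and −0.40 ± 0.12, edgeR adjusted p = 0.130), with 1 called lower by DESeq2. Fabp7, Cldn5 and Cdh5 were named after their values were seen, and no marker was at 0 in all libraries. The part of these markers in the differences of the respiratory genes was not tested.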

How the data were processed

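Per the labels' protocols, total RNA of mouse ganglia was turned into libraries with a NEBNext Ultra kit. Strand is not marked by that kit. The submitters' processing notes list HISAT2 2.1.0 as well as featureCounts 1.6.2, FastQC 0.11.8 and build mm10. The gene models and the rule for reads with several matches were not given in the sources used here. Each deposited file holds TPM values and expected counts per gene symbol, and 66.5% of the deposited expected counts were whole within 1e-06. Groups and replicate numbers came from the sample titles.

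Rounded counts of the 19141 genes with a mean of at least 1 TPM were tested in R 4.3.3 by quasi-likelihood in edgeR 4.0.16, scaled by TMM without covariates, and passed when p, adjusted by Benjamini-Hochberg, was under 0.05. The F statistic gave the standard errors and 95% intervals. No exact permutation test was run for single genes, since 3 against 3 libraries allow no p below 0.1. Libraries of one group differed by more than counting noise (mean chi-square per gene of 4.11 to 9.14). Gene length was count over TPM, set to bases by the single-transcript genes of GENCODE M21. Promoter windows came from RefSeq (GRCm38.p6). A floor of 3 counts equals 0.0648 to 0.140 CPM and covers counting error only.

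The members and lists were chosen with earlier results of these data known. Named genes were, per complex, the 3 smallest p-values and the highest and lowest level, the isoform genes, symbols that are no subunit, and the 2 smallest p-values of each other list. The remaining members were named to account for all, and motifs and shown windows were chosen after values were seen. The edgeR step was checked on simulated counts. Alternatives were DESeq2 1.42.0, limma 3.58.1 (voom, added after seeing the data, and log2(TPM + 0.5) or log2(TPM + 1)), other scalings and filters, removal of the length trend, a replicate block, and each library left out. Removal of the length trend without siNC-1 was also added after seeing the data.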

Additional observations from a re-analysis of the deposited data

How the results depend on the processing

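Over the 18 alternatives the median log2 fold change of the tested members lay between 0.13 and 0.21, and those of complexes II, III, IV and V between 0.057 and 0.16, 0.14 and 0.29, 0.12 and 0.24, and 0.13 and 0.21, each within 1 replicate SD of the reported value. No alternative called a member lower. The count of members called higher, 0 in edgeR's quasi-likelihood test (24 at an unadjusted p under 0.05), was 10 with DESeq2, 13 with no filter on low values (0.936% of the 30347 genes then tested were higher), and 0 to 4 with 1 library left out. With the replicate number as a block it was 1 (Atp5g3, edgeR adjusted p = 0.0471, where 0.282% of all tested genes were higher). Deviations of same-numbered libraries from their group means correlated at 0.141, 0.0423 and −0.0674, and those of differently numbered libraries between −0.234 and 0.171. Values this weak cannot show whether the numbers pair the libraries. The block raised the calls over all genes to 203, against 56. The cause of these changes was not tested. Sdha turned negative with limma at both pseudocounts (−0.0018 for each) and with the length trend removed and siNC-1 left out (−0.0074), and ran from −0.0058 to 0.049 with 1 library left out. Cox4i2 ran from −0.18 to 0.18 and mt-Atp8 from −0.16 to 4.03 with 1 library left out. Of other estimates that did not pass, leaving out 1 library gave 0.057 to 0.17 for Sdhd, 0.067 to 0.16 for Cox7a2, 0.055 to 0.14 for Cox7b, 0.049 to 0.16 for Cox8a, 0.0032 to 0.061 for Atp5b, 0.031 to 0.18 for Atp5g2, 0.095 to 0.24 for Atp5s, 0.017 to 0.10 for Atp5sl, 0.18 to 0.64 for Cox7a1, and for Cox6b2 0.18 without siCLAP-2. mt-Co3 was at −0.48 without siNC-3. The low isoform genes, with 6 to 37 counts per library for Cox4i2, Cox7a1 and Cox6b2, are limited by depth.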
